A study of Mus musculus with 6 samples.

Results

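The genes described here encode the machinery by which a nerve terminal stores transmitter in synaptic vesicles and releases it. They are 33 of the 45777 genes in the deposited count table, picked by symbol as a functional group with earlier results of these data known, and fall into 12 vesicle proteins and calcium sensors, 10 SNAREs and SNARE regulators, and 11 genes of the active zone and its adhesion molecules. The RNA came from the anterior cingulate cortex (medial frontal cortex) of mice of the inbred BALB/c strain. The stress group held 3 libraries from mice under social defeat stress for 5 days, in which attacks by a dominant mouse leave the subject subordinate. The non-stress group held 3 libraries from BALB/c mice labelled as not stressed. The labels give no age, sex or batch, and do not say whether each library is a separate animal. The p-values therefore measure only the spread between these libraries, which may be technical.

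Transmitter release begins when an action potential opens calcium channels at the active zone, a protein scaffold that holds vesicles close to the membrane. SNARE proteins on the vesicle (VAMPs) and on the plasma membrane (syntaxin 1 and SNAP-25) zip together, complexins hold the assembly until synaptotagmin binds calcium, and NSF with its SNAP adaptors takes the spent complex apart. In cortex these genes are expressed by both excitatory and inhibitory neurons, and paralogues often differ in which neurons use them.

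Stress and non-stress cortex did not differ past the threshold in any of the 33 genes (edgeR, quasi-likelihood test, false discovery rate of 0.05 by Benjamini and Hochberg). The adjusted p-values lay between 0.344 (Cplx1, Unc13a and Ppfia3) and 0.980 (Nsf). Of all 19227 genes tested, 0.00520% were called higher in stress and 0.00% lower. At an unadjusted p under 0.05, 11 release genes lay lower and 3 higher in stress, where 6.27% of all genes lay lower and 5.80% higher. DESeq2 called 1 release gene, Ppfia3, where it called 0.348% of genes lower and 0.312% higher, and limma-voom called 0, where it called 0.00% lower and 0.0104% higher. At an unadjusted p under 0.05, DESeq2 put 9 release genes lower (5.47% of all genes) and 3 higher (4.70%), and limma-voom 11 lower (6.02%) and 3 higher (6.54%). In 12 of the 33 genes all stress values lay below all non-stress values, against 9.43% of all genes, and in 2 genes they all lay above, against 8.43%. These counts are a description of the list.

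The differences were small. The median log2 fold change, stress over non-stress, was -0.057 over the 33 genes, against -0.00050 over all genes tested, with 21 genes below 0, as were 50.2% of all genes, and 12 above. Vesicle proteins had a median of -0.091 and SNAREs with their regulators one of -0.055, while the active zone genes had a median of 0.016 with 5 genes below and 6 above 0. The active zone genes were thus split: Ppfia3, Unc13a, Bsn and Nrxn2 had values below -0.14, and Rims2 and Nrxn3 had values above 0.13. Summed over each class in CPM, counts scaled to the library total, vesicle proteins stood at 6593, 6620 and 6490 CPM in stress libraries 1, 2 and 3, against 6688, 6969 and 6781 CPM in non-stress libraries 1, 2 and 3. SNAREs and their regulators summed to 13400, 13250 and 13170 CPM in stress, against 13600, 13890 and 13840 CPM in non-stress. Neither sum overlapped between the groups. The active zone sum overlapped, at 1019, 1025 and 1023 CPM in stress, against 1032, 993 and 1053 CPM in non-stress. The sum of 19 vesicle recycling genes was also lower without overlap (5538 to 5562 CPM in stress, 5670 to 5943 CPM in non-stress). That of 10 GABAergic neuron markers was higher without overlap (1224 to 1259 and 1162 to 1218 CPM), although 5 of the 10 genes were lower. Among the 5 higher, Sst stood at 286, 296 and 285 CPM in stress, against 218, 232 and 270 CPM in non-stress. At an unadjusted p under 0.05 in edgeR, 4 of the 10 were lower and 2 higher, where 6.27% and 5.80% of all genes were. The sums of the other lists described below overlapped. No share over other sets of genes was computed for such sums.

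**Figure D1:**
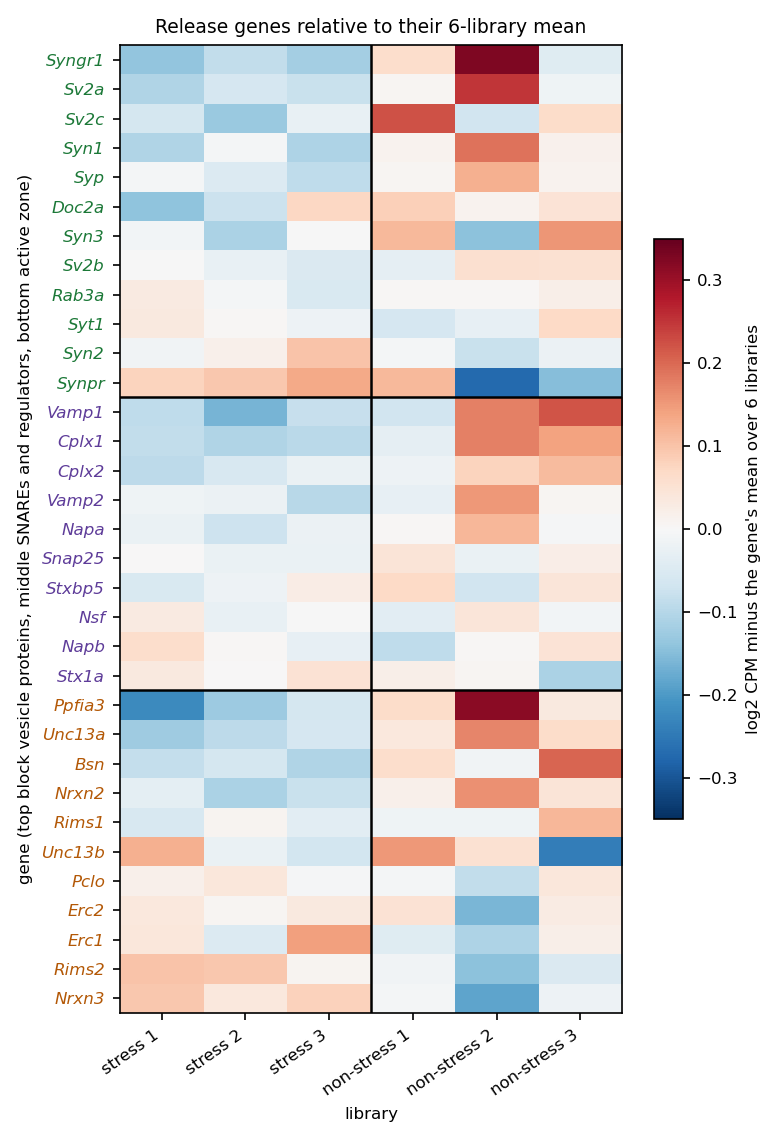
Log2 CPM of each of the 33 release genes minus its mean over the 6 libraries (colour, red above and blue below the mean), by library (columns, stress left of the line) and by class (blocks of rows: vesicle proteins, SNAREs and regulators, active zone), ordered within each class by log2 fold change. Non-stress 2 holds the strongest red, for Syngr1 and Ppfia3, and the strongest blue, for Synpr.

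The libraries are described first, because the values of several genes rest on them. Totals ran from 41623899 to 44882821 counts in the stress libraries and from 41976809 to 47212982 in the non-stress libraries, and the 33 genes together took 2.07% to 2.10% of them in stress and 2.13% to 2.19% in non-stress. The lowest count of any member in any library was 92, for Sv2c, and the 2 genes of lowest level, Sv2c and Unc13b, had the largest SEs of log2 fold change, 0.15 and 0.11. Principal component 1 of the log2 CPM of all genes tested placed non-stress 2 and 3 at 37.4 and 27.4, apart from non-stress 1 at -11.7 and the stress libraries at -20.4 to -14.9. Expression in non-stress 2 also followed the base composition of the transcript: genes in the lowest decile of GC content had a median of -0.15 on the log2 scale relative to their 6-library mean, and genes in the highest decile one of 0.14. In the stress libraries the same medians were 0.040 to 0.061 and -0.065 to -0.016, in non-stress 1 they were 0.064 and -0.0048, and in non-stress 3 they were -0.044 and 0.00060. The 6-library mean includes non-stress 2, which shifts the deviations of the other libraries the opposite way. A slope of the stress libraries' own cannot be read from these medians. Markers of cortical neurons were present, with Slc17a7, the vesicular glutamate transporter of cortical excitatory cells, at 1142 ± 12.6 CPM in stress and 1197 ± 83.8 CPM in non-stress (SD, n = 3 each). The summed CPM of 10 pan-neuronal markers was 6190 to 6224 in stress and 6171 to 6393 in non-stress, with 0 of the 10 past the adjusted threshold. Markers of GABAergic neurons, 10 genes, summed to 1224 to 1259 CPM in stress and 1162 to 1218 CPM in non-stress, with 5 genes higher and 5 lower. No gene of these lists, or of the lists for excitatory, striatal and thalamic neurons, astrocytes, oligodendrocytes, microglia, endothelium and choroid plexus, passed the adjusted threshold. Their part in the values below was not tested. In bulk RNA, fewer cells of a type and less RNA per cell cannot be told apart.

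Promoter sequence is shown because the study's title names cyclic AMP signalling. The cyclic AMP response element (CRE) is a promoter element that can be read directly. The 4 genes shown are among 12 that were lower in stress with no overlap between the groups. They were picked with their values known. Ppfia3, Vamp1, Bsn, Sv2a and Nrxn2, also among the 12, had larger log2 fold changes in size than Syn1 and are not shown. The sequences are RefSeq's for GRCm38.p6, on the gene's strand from 5′ to 3′, restricted to the longest stretch that lies outside the annotated gene and that no annotated exon covers. Capitals mark exact matches, on either strand, to the CRE (TGACGTCA), the GC box bound by Sp1 family factors (GGGCGG) or the binding letters of EGR factors (GCGGGGGCG or GCGTGGGCG). Capitals run on where an EGR match and a GC box overlap, as in the Syngr1 stretch.
Syn1, chrX:20921005-20921168, minus strand: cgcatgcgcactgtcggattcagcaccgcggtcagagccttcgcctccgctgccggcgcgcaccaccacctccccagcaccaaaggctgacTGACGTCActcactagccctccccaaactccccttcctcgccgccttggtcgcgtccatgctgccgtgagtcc
Syngr1, chr15:80091084-80091333, plus strand: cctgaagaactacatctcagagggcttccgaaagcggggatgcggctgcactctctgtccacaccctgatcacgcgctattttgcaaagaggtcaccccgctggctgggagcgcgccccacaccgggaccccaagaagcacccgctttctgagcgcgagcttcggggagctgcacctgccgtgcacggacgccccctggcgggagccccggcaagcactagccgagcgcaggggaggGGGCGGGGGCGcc
Cplx1, chr5:108550028-108550080, minus strand: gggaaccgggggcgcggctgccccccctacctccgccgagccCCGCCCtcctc
Unc13a, chr8:71671775-71672007, minus strand: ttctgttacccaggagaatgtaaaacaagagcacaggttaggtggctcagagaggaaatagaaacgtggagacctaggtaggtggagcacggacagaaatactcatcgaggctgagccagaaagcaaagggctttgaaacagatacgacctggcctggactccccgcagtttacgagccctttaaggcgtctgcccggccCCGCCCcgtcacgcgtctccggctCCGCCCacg
The table of promoters held 36 starts for 27 of the 33 genes. Within 250 bases upstream, a CRE was found at 1 of these 36 starts, that of Syn1, where 1.55% of the 32851 starts in the table hold it. An EGR match of the first kind was found at 3 starts (Stxbp5, Syn2 and Syngr1), against 2.57% of all starts, and of the other kind at 1 start (Unc13a), against 0.536%. The Unc13a match does not lie wholly within the stretch printed above, so it is not capitalised there. The GC box was found at 19 starts, against 32.7% of all. A match says only that the letters are there.

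Among the SNARE genes and their regulators, Cplx1, Vamp1 and Cplx2 had the smallest p-values. Cplx1 encodes complexin 1, which clamps and then promotes SNARE-driven fusion, and lies on chromosome 5 (108518554 to 108550027, GRCm38). It stood at 1250, 1242 and 1246 CPM in stress libraries 1, 2 and 3, against 1304, 1499 and 1470 CPM in non-stress libraries 1, 2 and 3. The stress libraries were nearly equal, and non-stress 1 was the nearest to them. On the log2 scale the fold change was -0.19 (SE 0.051, adjusted p = 0.344). It was -0.25 without non-stress 1 (adjusted p = 0.00151), in a fit that called 0.913% of all genes lower and 2.94% higher. Leaving out the non-stress library nearest to stress widens the gap. Adjusted p ranged from 0.00151 to 0.732 over 15 alternatives. The Cplx1 value was -0.15 without non-stress 2. After removal, library by library, of a smooth trend on transcript GC content and length, it was -0.13. Cplx2, the complexin of many excitatory neurons, was at 320, 330 and 337 CPM in stress, against 338, 359 and 370 CPM in non-stress (log2 fold change -0.11, SE 0.044, adjusted p = 0.386). Its groups did not overlap either, although stress 3 and non-stress 1 differed little. The Cplx2 value was -0.10 without non-stress 2 and -0.049 with that trend removed.

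Vamp1, a vesicular SNARE known for fast-firing neurons (chromosome 6, 125215581 to 125222306), stood at 168, 160 and 169 CPM in stress, against 171, 202 and 209 CPM in non-stress. The groups were apart only by the gap to non-stress 1, which lay close to the stress values. Its log2 fold change was -0.23 (SE 0.070, adjusted p = 0.351). Without non-stress 1 it was -0.31 (adjusted p = 0.00298), in the fit that called 0.913% of all genes lower and 2.94% higher. Over the alternatives adjusted p ranged from 0.000693, in a fit added after seeing the data, to 0.732. Vamp2, the main vesicular SNARE of forebrain synapses, was at 1969, 1974 and 1865 CPM in stress, against 1960, 2209 and 2011 CPM in non-stress, and these overlapped (log2 fold change -0.089, SE 0.049, adjusted p = 0.487, and -0.030 without non-stress 2). Unlike Cplx1, Unc13a and Ppfia3, Vamp1 had a transcript of modest GC content, 47.0%, and its log2 fold change was also -0.22 after removal, library by library, of a smooth trend on transcript GC content and length.

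The plasma membrane SNAREs differed less between the groups. Snap25, which contributes a pair of helices to the SNARE bundle, was the most abundant of the 33 genes, at 6402 ± 43.7 CPM in stress and 6548 ± 178 CPM in non-stress (SD, n = 3 each). Its log2 fold change was -0.032 (SE 0.028, adjusted p = 0.675). Removal of the trend moved it to -0.20 (adjusted p = 0.277). Removal of the trend together with non-stress 1 moved it to -0.27 (adjusted p = 4.17e-05), in a range of adjusted p up to 0.868. That fit was an alternative added after seeing the data, and it called 2.26% of all genes lower and 2.73% higher. The Snap25 transcript has a GC content of 38.7%, the lowest of the 33. Stx1a, which encodes syntaxin 1A, was at 499 ± 7.50 CPM in stress and 480 ± 23.1 CPM in non-stress, with overlapping groups (log2 fold change 0.056, SE 0.044, adjusted p = 0.618). Its value was 0.14 with the trend removed (adjusted p = 0.293), and 0.18 with the trend and non-stress 1 removed (adjusted p = 0.00822, in a range up to 0.913), and its transcript has a GC content of 57.9%.

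In the fit with no trend removed, the SNARE recycling factors Nsf and Napb and the syntaxin-binding regulator Stxbp5 lay close to 0. Nsf, the ATPase that separates spent SNAREs, was at 1359 ± 23.4 CPM in stress and 1357 ± 32.8 CPM in non-stress (log2 fold change 0.0029, SE 0.035). Napb, the brain-enriched adaptor beta-SNAP, had a log2 fold change of 0.024 (SE 0.045). The signs of Nsf and Napb changed when single libraries were left out. Napa, alpha-SNAP, was at 586, 569 and 589 CPM in stress, against 600, 644 and 598 CPM in non-stress. Those groups did not overlap, by a margin of under 10 CPM, and the log2 fold change was -0.078 (SE 0.042, adjusted p = 0.480), or -0.0062 with the trend removed and -0.036 without non-stress 2. Stxbp5, tomosyn, which competes with VAMPs for syntaxin, had a log2 fold change of -0.031 (SE 0.054), or -0.10 with the trend removed (SE 0.048).

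**Figure D2:**
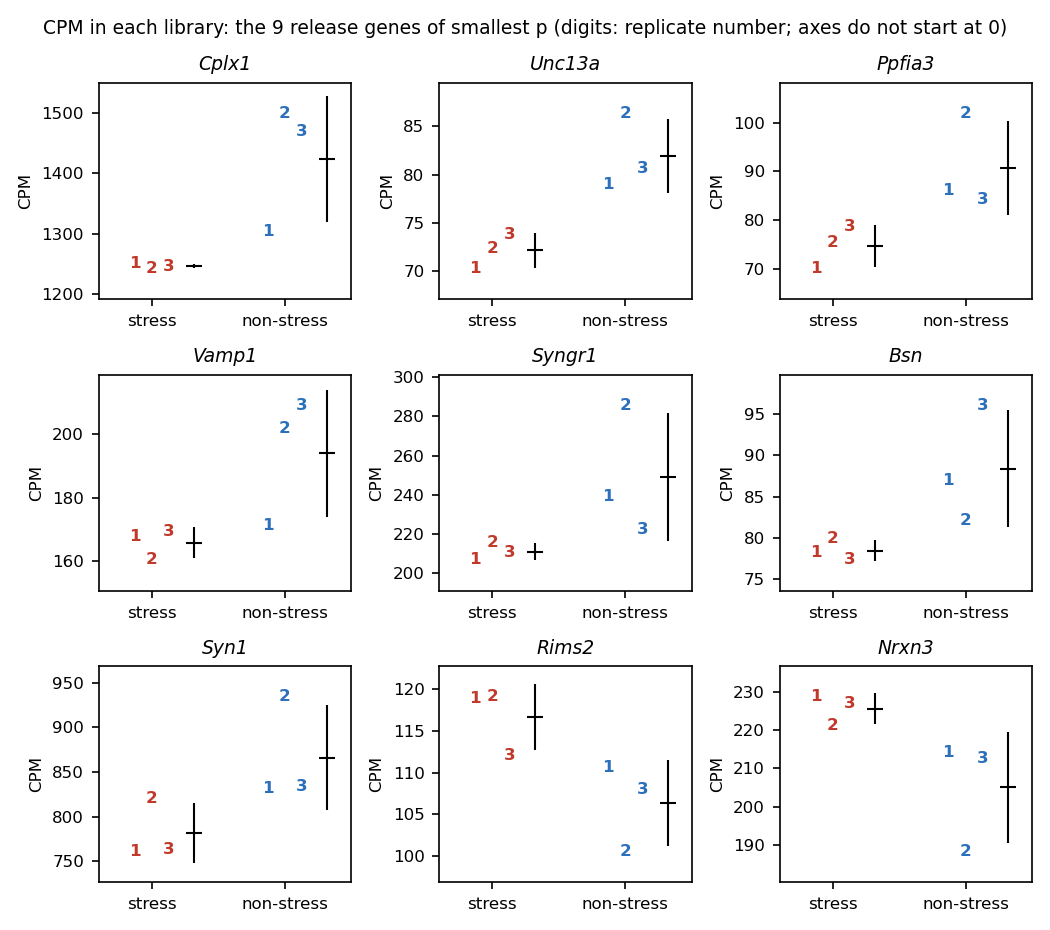
CPM in each library for the 9 release genes of smallest p in edgeR's test, stress left (red) and non-stress right (blue). Digits are replicate numbers, black bars the mean ± 1 SD of 3 libraries, and axes do not start at 0. Stress libraries lie below all non-stress libraries for Cplx1 to Syn1 and above them for Rims2 and Nrxn3.

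Among the active zone genes, Ppfia3 had the largest log2 fold change in size with all 6 libraries. It encodes liprin-alpha-3, a scaffold of the presynaptic active zone, on chromosome 7 (45339126 to 45367019). Ppfia3 stood at 70.1, 75.4 and 78.7 CPM in stress libraries 1, 2 and 3, against 86.0, 102 and 84.3 CPM in non-stress libraries 1, 2 and 3. All stress libraries lay below, and non-stress 2 was the highest library. Its log2 fold change was -0.28 (SE 0.078, adjusted p = 0.344). DESeq2 gave adjusted p = 0.0465, the lowest of 15 alternatives that reached up to 0.732. With the trend on GC content and length removed, the log2 fold change was -0.16, and without non-stress 2 it was -0.18, where Bsn was at -0.21. The Ppfia3 transcript has a GC content of 60.9%.

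Unc13a encodes Munc13-1, which primes vesicles for fusion by opening syntaxin (chromosome 8, 71624125 to 71671774). It was at 70.3, 72.3 and 73.8 CPM in stress, against 79.0, 86.3 and 80.6 CPM in non-stress, and these did not overlap. The log2 fold change was -0.18 (SE 0.051, adjusted p = 0.344), and -0.13 with the trend removed. Reads in 495 of its 12623 annotated exon bases could also come from Colgalt1 on the opposite strand. Unc13b, Munc13-2, was far less abundant at 13.2 ± 0.891 CPM in stress and 13.1 ± 1.79 CPM in non-stress. Its log2 fold change was 0.016 (SE 0.11), and its sign turned with the trend removed (-0.051), without non-stress 3 (-0.091) and without stress 1 (-0.043).

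Bassoon and Piccolo are giant scaffolds that organise the vesicle cluster and share much of their architecture. Bsn, on chromosome 9 (108096022 to 108190419), stood at 78.2, 79.9 and 77.3 CPM in stress, against 87.0, 82.1 and 96.0 CPM in non-stress. The groups did not overlap, and here non-stress 3, not non-stress 2, was the highest library. For Bsn the log2 fold change was -0.17 (SE 0.059, adjusted p = 0.351), or -0.12 with the trend removed and -0.11 without non-stress 3. Pclo was at 157 ± 2.70 CPM in stress and 154 ± 7.29 CPM in non-stress, with a log2 fold change of 0.034 (SE 0.045) that turned to -0.056 with the trend removed.

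The RIM proteins bind vesicular Rab3 and tether calcium channels at the release site. Rims2, on chromosome 15 (39198286 to 39684372), stood at 119, 119 and 112 CPM in stress, against 111, 101 and 108 CPM in non-stress. All stress values lay above, although stress 3 and non-stress 1 were close. For Rims2 the log2 fold change was 0.14 (SE 0.050, adjusted p = 0.371), and it was 0.16 with the trend removed. Rims1 was at 136 ± 3.53 CPM in stress and 142 ± 7.82 CPM in non-stress, overlapping, with a log2 fold change of -0.057 (SE 0.049). The ERC proteins, which bind RIMs, had log2 fold changes of 0.090 (Erc1, SE 0.063) and 0.051 (Erc2, SE 0.060), both with overlapping groups. The sign of Erc2 turned without non-stress 2 (-0.010).

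Neurexins are presynaptic adhesion molecules that align the release site with the postsynaptic side. Nrxn3 (chromosome 12, 88722701 to 90334935) stood at 229, 221 and 227 CPM in stress, against 214, 188 and 213 CPM in non-stress. The groups did not overlap, non-stress 2 was the lowest library, and the log2 fold change was 0.14 (SE 0.053, adjusted p = 0.38), with the same value after the trend was removed and 0.087 without non-stress 2. Nrxn2 (chromosome 19, 6418756 to 6533217) was at 23.9, 22.8 and 23.3 CPM in stress, against 24.9, 27.3 and 25.4 CPM in non-stress. It too had no overlap, in the opposite direction, and its log2 fold change was -0.15 (SE 0.064, adjusted p = 0.403). With the trend removed this was -0.023, and the Nrxn2 transcript has the highest GC content of the 33 genes, 62.4%.

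**Figure D3:**
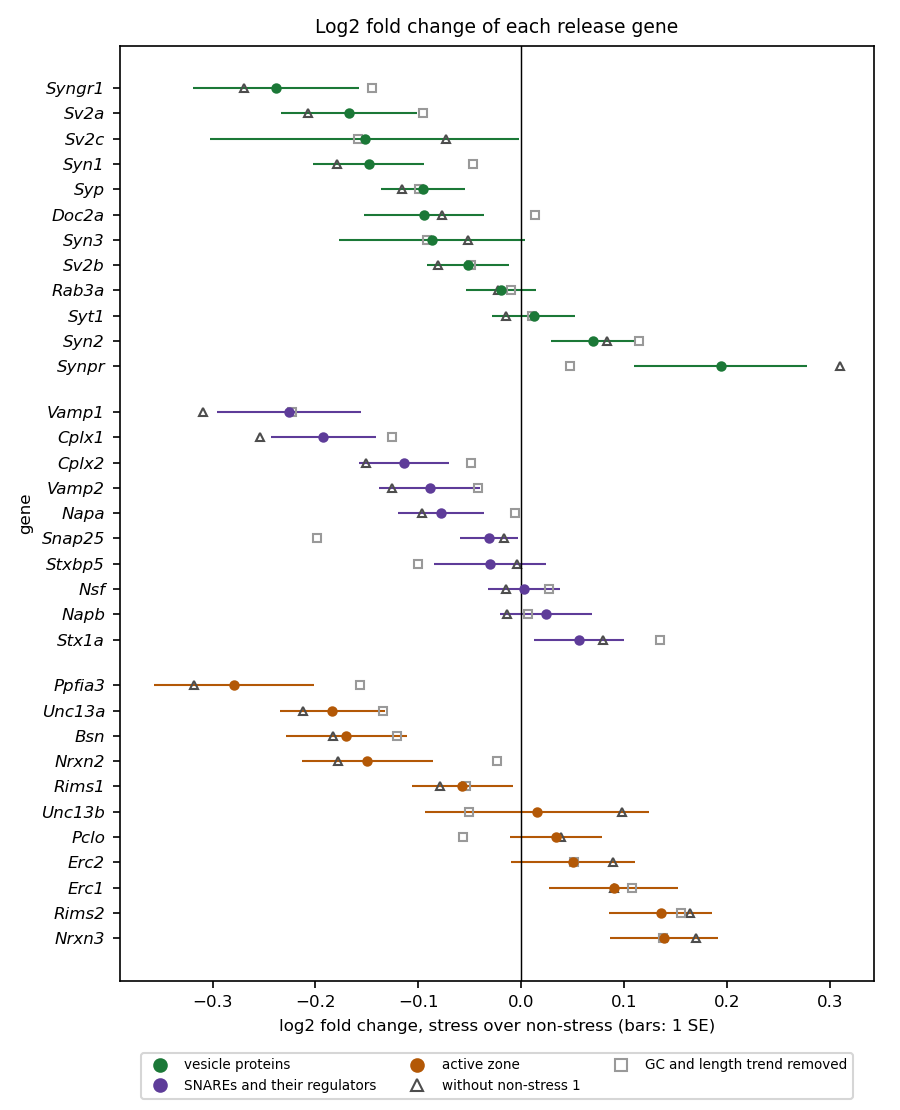
Log2 fold change (stress over non-stress) of each release gene by edgeR with all 6 libraries (filled circles, bars 1 SE, coloured by class). Open triangles are the values without non-stress 1, open squares those with the trend on GC content and length removed. Cplx1 and Vamp1 lie farther from 0 without non-stress 1, Nrxn2 and Syn1 lie nearer to 0 with the trend removed, and Snap25 lies farther below it.

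Among the vesicle proteins, the synaptogyrin gene Syngr1 (chromosome 15, 80091334 to 80119501), which encodes a membrane protein of small synaptic vesicles, had the largest negative value. It was at 207, 216 and 211 CPM in stress, against 239, 286 and 222 CPM in non-stress. The groups did not overlap, and the spread in non-stress came mostly from library 2. The log2 fold change was -0.24 (SE 0.081, adjusted p = 0.351), or -0.14 with the trend removed and -0.12 without non-stress 2. Without that library Sv2c (-0.22) and Syn3 (-0.17) had larger negative values. Syp encodes synaptophysin, a major membrane protein of these vesicles. It was at 1547, 1512 and 1465 CPM in stress, against 1569, 1691 and 1575 CPM in non-stress, without overlap (log2 fold change -0.096, SE 0.041, adjusted p = 0.405). Gm14703 on the opposite strand covers 875 of the 5211 annotated exon bases of Syp, and reads there could come from either gene if strand was not used. The Syp transcript has a GC content of 45.4%, and the log2 fold change was -0.10 with the trend removed and -0.053 without non-stress 2. Synpr, synaptoporin, a relative found in subsets of cortical cells, lay the other way. It stood at 128, 131 and 134 CPM in stress, against 132, 101 and 110 CPM in non-stress. Non-stress 1 lay among the stress libraries, so the groups overlapped (log2 fold change 0.19, SE 0.084, adjusted p = 0.407). Without non-stress 1 the value was 0.31 (adjusted p = 0.00630, in a range up to 0.755), in the fit that called 2.94% of all genes higher. Without non-stress 2 the Synpr value was 0.11, and with the trend removed it was 0.047, on a transcript with a GC content of 38.9%.

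The synapsins coat vesicles and tie them into the reserve cluster. Syn1 (chromosome X, 20860511 to 20920918) stood at 761, 820 and 763 CPM in stress, against 831, 934 and 833 CPM in non-stress. The groups did not overlap, although stress 2 came within about 11 CPM of the lowest non-stress library. The log2 fold change was -0.15 (SE 0.054, adjusted p = 0.367), -0.047 with the trend removed and -0.084 without non-stress 2, on a transcript with a GC content of 57.9%. Syn2 was at 747 ± 31.5 CPM in stress and 712 ± 20.8 CPM in non-stress, overlapping. Its log2 fold change was 0.070 (SE 0.041, adjusted p = 0.509), or 0.11 with the trend removed (adjusted p = 0.371). Syn3, the synapsin more prominent in developing neurons, was at 16.2 ± 0.638 CPM in stress and 17.3 ± 1.94 CPM in non-stress (log2 fold change -0.087, SE 0.090). Timp3 on the opposite strand covers 1733 of the 12282 annotated exon bases of Syn3, and the use of strand in counting is not given in the sources used here.

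Sv2 proteins are vesicle glycoproteins that act on synaptotagmin, and Sv2a is the binding site of the antiepileptic levetiracetam. Sv2a (chromosome 3, 96181227 to 96195183) was at 317, 330 and 325 CPM in stress, against 345, 407 and 341 CPM in non-stress, without overlap. Non-stress 2 stood well above the rest, and the log2 fold change was -0.17 (SE 0.066, adjusted p = 0.386), or -0.074 without that library. The isoform gene Sv2b was at 306 ± 4.80 CPM in stress and 317 ± 10.4 CPM in non-stress (log2 fold change -0.052, SE 0.040). Sv2c, which in forebrain is mainly a gene of the basal ganglia, was barely expressed at 2.20 ± 0.0781 CPM in stress and 2.45 ± 0.256 CPM in non-stress. The calcium sensor Syt1, synaptotagmin 1, was at 1169 ± 19.5 CPM in stress and 1160 ± 56.1 CPM in non-stress (log2 fold change 0.012, SE 0.040). Rab3a, the small GTPase that marks release-ready vesicles, was at 1266 ± 35.2 CPM in stress and 1285 ± 10.9 CPM in non-stress (log2 fold change -0.020, SE 0.034). The signs of Syt1 and Rab3a turned under some alternatives. Doc2a, a calcium sensor of asynchronous release, had a log2 fold change of -0.095 (SE 0.058), which was 0.013 with the trend removed. Ino80e on the opposite strand covers 1103 of its 2803 exon bases, and reads there could come from either gene if strand was not used in counting.

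Level can be compared between genes only per length, and on that scale (CPM per kilobase of the longest annotated transcript, mean of 6 libraries) Snap25 came first at 1327, followed by Vamp2 at 906 and Rab3a at 820. Cplx1 at 610 and Syp at 549 were next. At the other end stood Sv2c at 0.255, Unc13b at 0.891, Syn3 at 3.51 and Nrxn2 at 3.69. The large scaffolds were low on this scale, with Bsn at 5.23 and Pclo at 7.75.

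Related genes were compared within each library as a ratio of CPM, which does not depend on the library's scaling. Here 13 pairs of members were formed by family, with Bsn and Pclo as the pair of large scaffolds, and the pairs were chosen after the values were seen. In 4 of the 13 pairs the groups did not overlap, and in 9 they did. Which gene of a pair stands first was set with the values known, so the direction of a ratio carries no information, and no share over other pairs of genes was computed. Bsn/Pclo was 0.499, 0.498 and 0.499 in stress libraries 1, 2 and 3, against 0.561, 0.563 and 0.599 in non-stress libraries 1, 2 and 3. The stress values were almost identical, and all non-stress values lay above. Nrxn2/Nrxn3 was 0.105, 0.103 and 0.102 in stress, against 0.116, 0.145 and 0.119 in non-stress. Rims1/Rims2 was 1.12, 1.17 and 1.21 in stress, against 1.24, 1.36 and 1.40 in non-stress. Syn1/Syn2 was 1.06, 1.11 and 0.977 in stress, against 1.14, 1.36 and 1.16 in non-stress. All stress ratios lay below all non-stress ratios in these 4 pairs. The differences of mean log2 ratio were -0.20 for Bsn/Pclo, -0.29 for Nrxn2/Nrxn3, -0.19 for Rims1/Rims2 and -0.22 for Syn1/Syn2. No p is given for them, since the pairs were formed with the values known and an exact permutation test of 3 libraries against 3 cannot go below 0.10.

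The partners in a pair also differed in base composition. GC content was 59.8% for Bsn and 45.4% for Pclo, 62.4% for Nrxn2 and 47.5% for Nrxn3, and 57.9% for Syn1 and 51.6% for Syn2. For Rims1 and Rims2 it was similar, at 47.4% and 48.9%. With the trend on GC content and length removed, the difference of log2 fold changes was -0.065 for Bsn/Pclo, -0.16 for Nrxn2/Nrxn3 and -0.16 for Syn1/Syn2, while for Rims1/Rims2 it was -0.21. Without non-stress 1 the 4 differences were -0.22, -0.35, -0.26 and -0.24 for Bsn/Pclo, Nrxn2/Nrxn3, Syn1/Syn2 and Rims1/Rims2. A ratio shows that the genes of a pair differed unequally, not that either of them was constant.

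**Figure D4:**
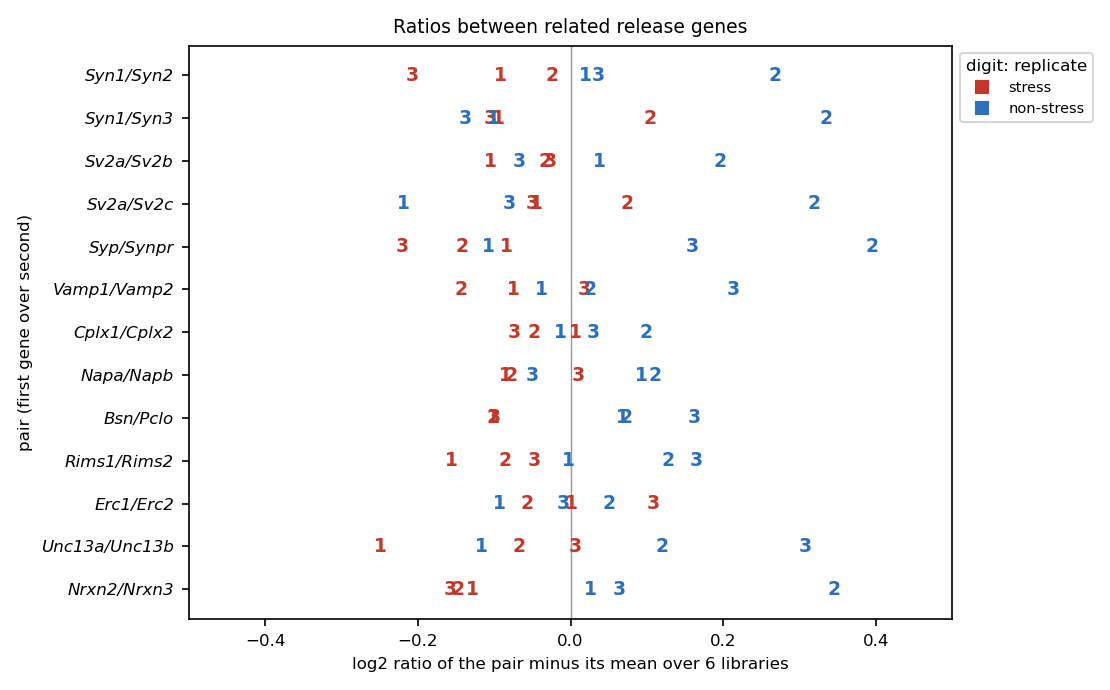
Log2 ratio of CPM of 13 pairs of related release genes in each library, minus the pair's mean over 6 libraries (horizontal axis). Digits are replicate numbers, red for stress and blue for non-stress. All red digits lie left of all blue digits for Syn1/Syn2, Bsn/Pclo, Rims1/Rims2 and Nrxn2/Nrxn3.

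Base composition ran alongside the direction of the 33 genes as a whole. Of the 16 genes with a transcript GC content of 50% or more, 13 had a log2 fold change below 0, with a median of -0.13. At an unadjusted p under 0.05, 9 of the 16 were lower and 0 higher. Among all 8365 tested genes in that GC range, 63.7% lay below 0, 10.7% were lower and 3.44% higher at that p, and the median was -0.048. Of the 17 release genes under 50%, 8 lay below 0 and 9 above, with a median of 0.0029, and 2 were lower and 3 higher at an unadjusted p under 0.05. Among all 8948 tested genes in that range, 40.1% lay below 0, 3.07% were lower and 7.78% higher, and the median was 0.028. The 16 GC-rich genes had median deviations of -0.084, -0.061 and -0.060 from their 6-library mean in stress libraries 1, 2 and 3, against 0.0096, 0.13 and 0.020 in non-stress libraries 1, 2 and 3. Spearman's rho between log2 fold change and GC content was -0.51 across the 33 genes and -0.31 across 17313 genes, given as a description, since the genes share the same libraries. With the trend removed, the medians were -0.045 for the GC-rich and -0.051 for the other genes, and over all 33 it was -0.049. Of the 33 genes, 22 lay below 0 with the trend removed, where 52.2% of all genes did. At an unadjusted p under 0.05, 7 genes were then lower, where 6.17% of all genes were, and 4 were higher, where 5.38% were. Without non-stress 2, 7 were lower and 2 higher, against 4.06% and 4.08% of all genes. Without non-stress 1, 12 were lower and 3 higher, against 9.61% and 9.84%. In that fit 2 release genes, Cplx1 and Vamp1, passed the adjusted threshold in the lower direction, where 0.913% of all genes did, and Synpr passed in the higher direction, where 2.94% did. In a fit with the trend removed that also dropped non-stress 1, an alternative added after seeing the data, Snap25, Vamp1 and Cplx1 passed in the lower direction, where 2.26% of all genes did, and Stx1a and Rims2 in the higher, where 2.73% did.

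**Figure D5:**
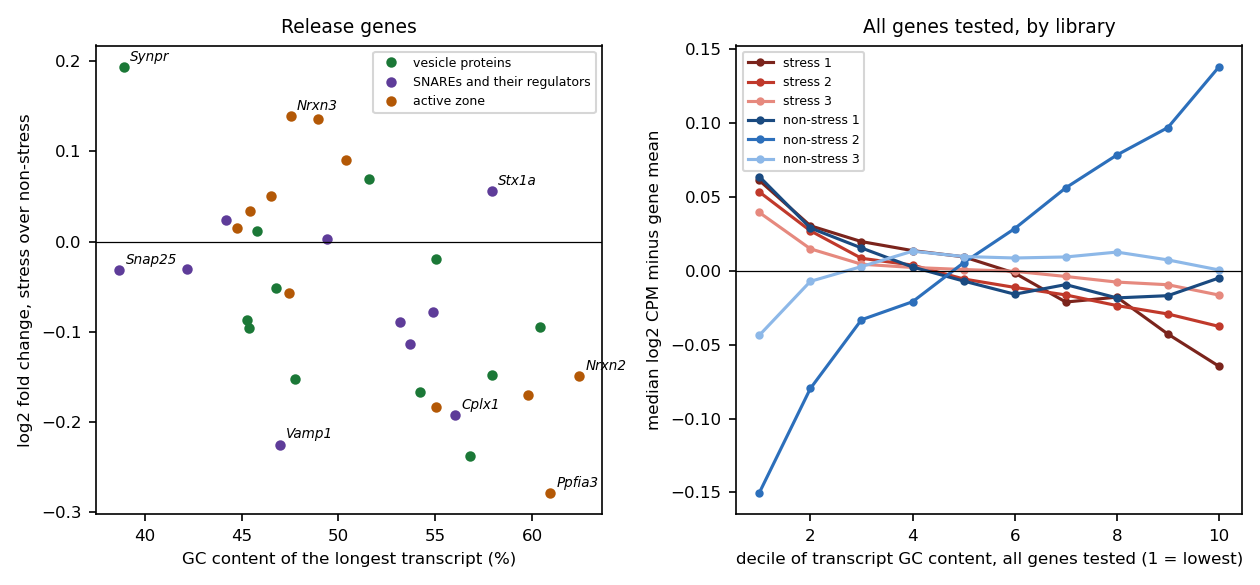
Left, log2 fold change of the 33 release genes against the GC content of the longest transcript (percent), coloured by class. Right, median log2 CPM of all genes tested minus their 6-library mean, by decile of GC content, for each library: non-stress 2 climbs from -0.15 to 0.14, and the stress libraries run slightly downward. The mean includes non-stress 2, which shifts the other libraries the opposite way.

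Lists of other genes of the same pathway had medians smaller in size than the -0.057 of the 33 genes. Of 60 further release genes, 58 were tested, 26 with a log2 fold change above 0 and 32 below, and the median was -0.024. None passed the adjusted threshold, and at an unadjusted p under 0.05 there were 5 higher and 8 lower, where 5.80% and 6.27% of all genes were. The groups did not overlap in 5 genes higher and 8 lower in stress, against 8.43% and 9.43% of all genes. Cplx3, a complexin of ribbon synapses and of deep cortical subplate-type neurons, stood at 24.4, 24.0 and 27.1 CPM in stress, against 21.7, 21.7 and 18.9 CPM in non-stress (log2 fold change 0.28, SE 0.080, adjusted p = 0.344). That is the opposite direction to Cplx1 and Cplx2. Syt2, a fast calcium sensor known from parvalbumin interneurons, stood at 18.1, 18.2 and 15.1 CPM in stress, against 19.5, 21.0 and 21.5 CPM in non-stress (log2 fold change -0.27, SE 0.088, adjusted p = 0.351). The groups overlapped for neither gene.

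Of 12 vesicle transporter and proton pump genes, 4 lay above 0 and 8 below, and of 19 vesicle recycling genes 4 lay above and 15 below, with medians of -0.0056 and -0.038, where 50.2% of all genes lay below 0. None passed the threshold. Slc32a1, the vesicular GABA transporter, had 3.22, 4.10 and 3.16 CPM in stress, against 4.83, 5.78 and 4.07 CPM in non-stress (log2 fold change -0.49, SE 0.17, adjusted p = 0.351). Stress 2 and non-stress 3 overlapped narrowly. Slc17a6, a vesicular glutamate transporter more typical of thalamus, lay 0.31 higher on the log2 scale (SE 0.14, adjusted p = 0.412). In the recycling list, the clathrin uncoating factor auxilin (Dnajc6) was lower by a log2 fold change of -0.14 (adjusted p = 0.388, SE 0.058) and the dynamin gene Dnm3 higher by one of 0.077 (adjusted p = 0.587, SE 0.055).

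The genes whose pattern over the 6 libraries was most like that of Cplx1, the release gene of smallest p, were Ptgds, Uspl1 and H2-Q2, with Pearson's r of 0.998, 0.998 and 0.995 on log2 CPM. Ptgds, prostaglandin D synthase, was at 248, 247 and 246 CPM in stress, against 255, 274 and 273 CPM in non-stress. These are the highest values found among all genes tested and 6 points, and are given as a description only.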

How the data were processed

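RNA-seq libraries of anterior cingulate cortex were compared between 3 stress and 3 non-stress samples, grouped by the labels. Per the labels' protocols, 100 ng of RNA went into SMARTer Ultra low and TruSeq library construction. Per the submitters' processing notes, Trimmomatic 0.38, HISAT2 and StringTie were used with GRCm38 (mm10). How reads were counted, and whether by strand, is not given in the sources used here. The authors deposited whole-number counts per gene, used unchanged. No 2 libraries held identical values.

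Genes kept by filterByExpr (19227) were tested with edgeR 4.0.16 in R 4.3.3 by the quasi-likelihood test with group as the term, TMM scaling, and Benjamini-Hochberg adjustment over all genes, two-sided, with a threshold of 0.05. SE is the size of the log2 fold change divided by the square root of F. DESeq2 1.42.0 and limma-voom (limma 3.58.1) were alternatives. Log2 CPM used a prior count of 2. The step was tested on simulated data. GC content and length came from the longest GENCODE M21 transcript, found for 17313 genes tested (90.1%). The trend was fitted per library with natural splines of 5 degrees of freedom, and genes without values were given none.

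All 33 members are named, and related lists are named by their smallest p in each direction. Members and lists were chosen with earlier results of these data known.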

Additional observations from a re-analysis of the deposited data

How the results depend on the processing

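Of 495 values of single release genes under the alternatives, 463 kept their sign and their side of the threshold, 23 changed sign and 9 passed the threshold. Leaving out 1 library moved the log2 fold change by over 1.5 times, or turned its sign, in 27 of the 33 genes, in 18 of them for non-stress 2, and in none of the 6 genes Vamp1, Cplx1, Cplx2, Rims2, Unc13a and Nrxn2. Over all the alternatives, not only those that left out a library, the sign changes fell in 8 genes. Leaving out each library in turn gave log2 fold changes of -0.041 to 0.0018 for Rab3a, -0.015 to 0.050 for Syt1, -0.015 to 0.028 for Nsf, -0.014 to 0.054 for Napb, -0.010 to 0.089 for Erc2 and -0.091 to 0.098 for Unc13b. It gave 1 to 756 genes and 0 to 3 release genes past the threshold, with 756 and 3 without non-stress 1. Class medians ran from -0.091 to -0.064 for vesicle proteins, from -0.043 to 0.039 for the active zone, and from -0.074 to -0.039 for all 33 genes. The active zone median was -0.043 without stress 1, -0.010 without non-stress 2 and -0.013 without non-stress 3.

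Without a filter Nsf was at -0.00080. DESeq2 called 127 genes in all and 1 release gene, limma-voom called 2 genes in all. With the trend on GC content and length removed, 3 genes passed in all, and the medians were -0.048 for vesicle proteins and -0.051 for the active zone. Doc2a was then at 0.013, Pclo at -0.056 and Unc13b at -0.051. With non-stress 1 left out as well, an alternative added after seeing the data, 979 genes and 5 release genes passed (Snap25, Vamp1 and Cplx1 lower, Stx1a and Rims2 higher), and the medians were -0.059 and -0.040. Syt1 was then at -0.026, Doc2a at 0.054, Napb at -0.047, Pclo at -0.097 and Unc13b at -0.019. The cause of these differences was not tested.

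With replicate number as a block, 2 genes in all and 0 release genes passed, although the labels do not say that the numbers pair the libraries, and same-numbered libraries did not deviate together (r = 0.016, -0.030 and 0.021 for replicates 1, 2 and 3). With the replicate block and the trend removed together, 4 genes in all passed, the medians were -0.048 for vesicle proteins and -0.042 for the active zone, and Doc2a, Pclo and Unc13b were at 0.015, -0.055 and -0.042.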
